A study of Mus musculus with 10 samples.

Results

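Promoters of protein-coding genes were described in spermatozoal DNA of 10 C57BL/6 mice by reduced representation bisulfite sequencing, which cuts DNA with MspI and reads the methylation of cytosines in CpG-rich fragments. A promoter was the stretch from 1000 bp upstream to 500 bp downstream of the start of an autosomal protein-coding gene in GENCODE M21, the mouse gene annotation on GRCm38 (mm10). CpG sites were used when both strands together were covered by 10 or more reads in every animal, and a promoter was kept when it held at least 5 of them. This left 11457 promoters of 20807 autosomal protein-coding genes (55.1%), and 348244 of the 892267 covered autosomal CpG sites. The methylation level of a promoter is the mean percentage over its CpG sites, given per animal.

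In the P-generation, males received decitabine (5-aza-2'-deoxycytidine, an inhibitor of DNA methyltransferases) at 0.1 µg/g, or the vehicle, 7.5% dimethyl sulfoxide in buffered saline. Injections were given intraperitoneally 3 times per week over 7 weeks, starting at 7 weeks of age. The groups held 3 decitabine treated animals (D10, D11 and D13) and 2 vehicle animals (C8 and C14). In the F3-generation, 3 descendants of decitabine treated males (F3D1 and F3D31 from D10, F3D7 from D11) and 2 descendants of vehicle males (F3C9 from C8, F3C30 from C14) were analysed, none of which had been treated. The F3 animals are thus not independent of the P animals, nor F3D1 and F3D31 of each other. Every animal either received the vehicle solution, with or without drug, or descends from a male that did. Spermatozoa were released from minced epididymides. Sperm purity was measured by the study in P-generation samples, and those values were not used here.

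DNA methylation is the addition of a methyl group to cytosine, mostly within the dinucleotide CpG. Promoters rich in CpG, called CpG islands, are largely free of it in most cells, and CpG-poor promoters are often methylated. Male germ cells erase and rewrite this mark before birth. At imprinted genes the mark is placed in either the egg or the sperm, so that maternally methylated imprinted promoters are unmethylated in sperm and methylated on the maternal copy in somatic cells. Promoters of many genes used only in germ cells are methylated in somatic tissues and free of methylation in the germ line.

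The following stretches of 150 bases within the 250 bases upstream of the gene start show the kinds of promoter found. They were read from GRCm38 and are written 5′ to 3′ on the strand of the gene, with the measured CpG sites in capitals. Enah stands for the unmethylated CpG islands. A1cf is a CpG-poor methylated promoter, though not a typical one. Its mean of 82.5% was below the median of 92.4% in methylated promoters, and its P-generation difference was among the largest. 3110070M22Rik is the CpG-richest promoter of intermediate methylation, Sycp1, Slc25a31 and Rpl39l are intermediate promoters of genes used in male germ cells, and Olfr1033 is a CpG-poor promoter with one of the largest differences in the P-generation.
Enah (chr1:182019996-182020145, minus strand): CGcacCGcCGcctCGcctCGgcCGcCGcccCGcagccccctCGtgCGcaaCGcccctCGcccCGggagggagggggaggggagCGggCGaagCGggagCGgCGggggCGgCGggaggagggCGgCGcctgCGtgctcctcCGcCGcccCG
A1cf (chr19:31868614-31868763, plus strand): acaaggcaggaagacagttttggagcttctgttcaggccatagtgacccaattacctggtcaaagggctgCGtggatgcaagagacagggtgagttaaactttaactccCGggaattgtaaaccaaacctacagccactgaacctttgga
3110070M22Rik (chr13:119488384-119488533, minus strand): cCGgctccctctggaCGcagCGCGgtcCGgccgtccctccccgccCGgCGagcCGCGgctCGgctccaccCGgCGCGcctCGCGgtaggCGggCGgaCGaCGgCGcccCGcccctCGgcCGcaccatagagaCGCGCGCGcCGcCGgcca
Sycp1 (chr3:102936101-102936250, minus strand): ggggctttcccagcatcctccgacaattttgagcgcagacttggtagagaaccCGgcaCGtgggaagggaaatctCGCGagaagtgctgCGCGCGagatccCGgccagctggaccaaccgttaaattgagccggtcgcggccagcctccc
Slc25a31 (chr3:40708674-40708823, plus strand): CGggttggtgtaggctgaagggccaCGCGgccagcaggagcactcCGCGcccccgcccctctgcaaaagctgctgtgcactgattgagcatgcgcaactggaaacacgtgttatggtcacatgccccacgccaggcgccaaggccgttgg
Rpl39l (chr16:10170076-10170225, plus strand): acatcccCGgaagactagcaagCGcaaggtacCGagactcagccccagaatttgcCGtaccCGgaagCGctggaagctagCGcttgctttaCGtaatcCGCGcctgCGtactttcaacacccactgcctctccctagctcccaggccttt
Olfr1033 (chr2:86020483-86020632, plus strand): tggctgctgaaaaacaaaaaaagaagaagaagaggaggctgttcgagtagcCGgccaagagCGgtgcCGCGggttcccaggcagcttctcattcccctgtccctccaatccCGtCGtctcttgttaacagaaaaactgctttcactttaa

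The Enah stretch held 26 CpG sites, all measured, at 0% to 6.68% each. The A1cf stretch held 2 CpG sites at 69.8% and 88.0%. In the 3110070M22Rik stretch 29 of 31 CpG sites were measured and lay between 11.7% and 74.0%, so that neighbouring sites of this CpG island differed widely. The measured sites lay between 17.7% and 35.5% in Sycp1, between 21.5% and 23.3% in Slc25a31, between 12.5% and 28.5% in Rpl39l and between 44.7% and 75.1% in Olfr1033.

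Most measured promoters were almost free of methylation in sperm. Of the 11457 promoters, 11131 (97.2%) were unmethylated, with a mean over the 10 animals under 20%. Another 250 (2.18%) were intermediate, from 20% to under 80%, and 76 (0.663%) were methylated, at 80% or more. A total of 6556 promoters (57.2%) lay below 1% and 10733 (93.7%) below 5%. The measured promoters are the CpG-rich ones. Their CpG observed-to-expected ratio, the number of CpG dinucleotides relative to that expected from the base composition, had a median of 0.670, against 0.194 in the 9350 promoters without enough covered sites.

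**Figure D1:**
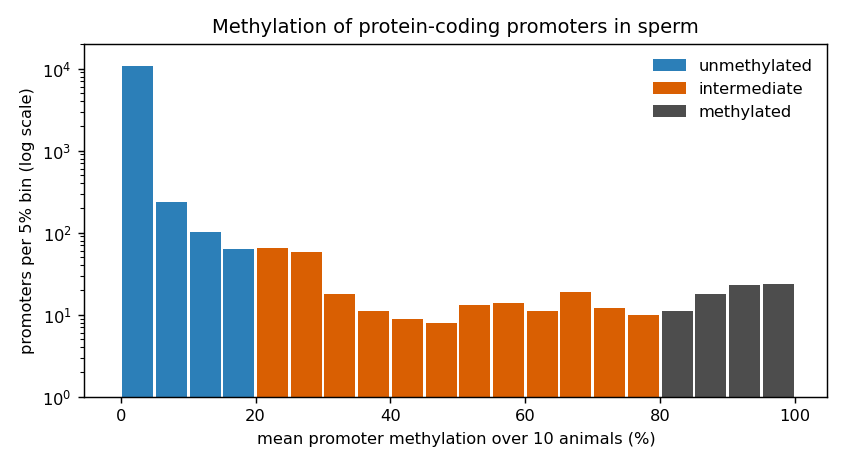
Number of promoters (log scale) per 5% bin of the methylation level, averaged over 10 animals. The first bin holds 10733 of 11457 promoters, and a low rise from 80% upwards holds the 76 methylated ones.

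The classes differed in CpG content. The median number of measured CpG sites was 29 in unmethylated, 7 in intermediate and 6 in methylated promoters, and the median observed-to-expected ratio was 0.675, 0.326 and 0.249. Of the 37 promoters with a ratio under 0.2, 18 (48.6%) were methylated and 17 (45.9%) intermediate. Of the 2280 promoters with a ratio of 0.8 or more, 2277 (99.9%) were unmethylated, 3 were intermediate and 0 were methylated. These shares are descriptions over promoters, of which 2239 shared at least 1 CpG site with the promoter of another gene.

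The limit at 20% cuts through a filled range. There were 63 promoters from 15% to 20%, 66 from 20% to 25% and 59 from 25% to 30%. Fewer lay around 80%, with 10 from 75% to 80% and 11 from 80% to 85%. Just below 20% lay Rbm44 (19.9%) and Evx1 (19.8%), and just above it AI854703 (20.1%) and Wdr20rt (20.2%). Just below 80% lay Zcchc4 (79.5%) and Gm7995 (79.3%), and just above it Olfml1 (80.1%) and Itga2b (81.6%).

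Mean methylation differed between positions in the window, which were covered in different sets of promoters. In unmethylated promoters it was 0.904% in the first 100 bp after the gene start (7640 promoters). It was 1.63% around 450 bp upstream (1880 promoters) and 5.90% in the outermost 100 bp upstream (553 promoters). Intermediate promoters had 35.9% after the start (105 promoters) and 60.4% in the outermost bin (24 promoters). Whether levels differ along the same promoters was not tested. Methylated promoters lay between 86.0% and 94.3% in every bin.

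**Figure D2:**
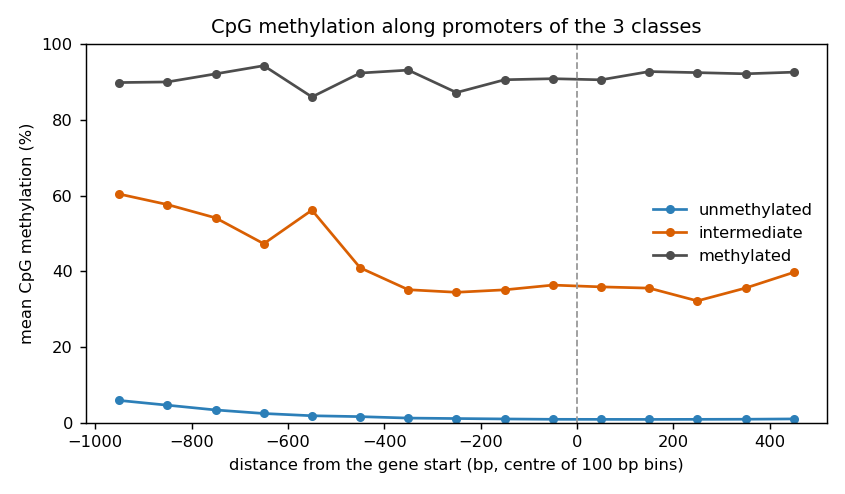
Mean CpG methylation (%) in bins of 100 bp against the distance from the gene start, averaged over 10 animals, for the 3 promoter classes. The mean in unmethylated promoters is 0.904% after the start and 5.90% at the upstream edge, and methylated promoters stay above 86%. Bins hold different sets of promoters.

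The unmethylated promoters with the most measured CpG sites belonged to Dyrk1a, a protein kinase, and Ski, a transcriptional co-repressor, with 160 sites each. They were followed by Arid2 (157 sites), a subunit of a chromatin remodelling complex, Ankrd11 (152) and Enah (149), a regulator of actin filaments. Their levels were 0.723% (Dyrk1a), 0.684% (Ski), 0.742% (Arid2), 0.711% (Ankrd11) and 0.729% (Enah). Enah had values of 0.989% in C8, 0.6185% in C14, 0.8565% in D10, 0.257% in D11 and 0.565% in D13. In the F3-generation it had 0.498% in F3C9, 0.524% in F3C30, 0.566% in F3D1, 1.46% in F3D7 and 0.954% in F3D31. For comparison, the CpG sites of mitochondrial DNA in the same files were called methylated in 1.09% to 2.72% of reads per animal. F3D7 had the highest mean over the 6556 promoters below 1%, 1.00%, and the other 9 animals had 0.605% to 0.776%.

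Among the methylated promoters, the most CpG sites were measured in Sfi1 (19 sites, 87.7%), which encodes a centrosome protein, Gm13090 (13 sites, 97.2%) and Sox10 (12 sites, 94.0%), a transcription factor of the neural crest. The coverage of the Sfi1 sites was 45.1 times the median promoter coverage, with 41150 to 134149 calls per animal. Whether all these reads came from this promoter was not tested. Acp4 (96.3%), Sh3rf2 (89.4%), Ccdc42 (94.3%), a gene of the sperm flagellum, Gimap1 (87.3%), a GTPase of lymphocytes, Agxt (91.8%), a liver enzyme of glyoxylate metabolism, Calhm1 (88.6%), an ion channel, and Cmtm5 (82.0%) followed. Sox10 was methylated in every animal, with 88.8% in C8, 95.6% in C14, 93.6% in D10, 91.4% in D11 and 93.7% in D13. In the F3-generation it had 92.8% in F3C9, 95.8% in F3C30, 94.9% in F3D1, 97.1% in F3D7 and 96.8% in F3D31. In the 47 promoters of 90% or more, the median range over the 10 animals was 7.19 percentage points.

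Intermediate promoters were of several kinds. In 109 of 250, each measured CpG site was itself between 20% and 80%. In 25, sites under 20% and sites of 80% or more lay in the same window, and in 7 no site was intermediate. The class was also the most variable between animals, with a median range of 26.2 percentage points against 1.35 in unmethylated and 8.73 in methylated promoters. C8 held the highest value in 92 and the lowest in 43 of the 250 intermediate promoters, and the range was not computed without it.

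The CpG-richest intermediate promoters were those of 3110070M22Rik (73 sites, 56.3%) and Tmem267 (62 sites, 53.7%), divergent neighbours on chromosome 13 whose windows overlap (119487883-119489383 and 119487039-119488539). 3110070M22Rik had 48.8% in C8, 59.6% in C14, 40.2% in D10, 46.6% in D11 and 40.5% in D13. In the F3-generation it had 67.5% in F3C9, 48.6% in F3C30, 69.7% in F3D1, 75.9% in F3D7 and 65.2% in F3D31. The decitabine treated animals lay below the vehicle animals in the P-generation, and the groups overlapped in the F3-generation. The coverage of these sites was 2.31 times the median promoter coverage, averaged over the animals. The next were 1700067K01Rik (24.3%), Gm45844 (23.1%), Gm21863 (20.3%), Pabpc6 (26.8%), Ddx4 (22.6%), an RNA helicase of germ cells, Chmp2a (26.7%), Slc25a31 (24.8%), a testis ADP/ATP carrier, and Sohlh2 (28.0%), a transcription factor of early germ cells. Chmp2a, a subunit of the membrane-remodelling ESCRT complex, varied little between animals, from 24.0% to 28.5%, whereas Sohlh2 ranged from 18.6% in F3D31 to 51.4% in C8. Within the window the CpG sites of Chmp2a differed widely, with an SD of 37.4 percentage points against 6.01 in Sohlh2.

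Of 38 autosomal genes on the list of meiosis and germ-cell genes, 28 were measured, with 16 unmethylated, 12 intermediate and 0 methylated promoters and a median level of 18.9%, against 0.918% over all promoters. The highest was Sycp2 (32.3%) and the lowest Prdm9 (0.661%), the histone methyltransferase that places recombination sites. Sycp1 (25.1%) and Sycp3 (20.6%), parts of the synaptonemal complex together with Sycp2, Hormad1 (25.6%), which acts on meiotic chromosome axes, Piwil2 (27.1%) and Asz1 (25.3%) of the piRNA pathway and Ddx4 were intermediate. Dazl, an RNA-binding protein of germ cells, lay at 18.8%. Dmc1 (2.97%), the meiotic recombinase, Stag3 (1.19%), a meiotic cohesin, Mlh3 (0.948%) and Hspa2 (0.8315%) were unmethylated.

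Other lists were mostly unmethylated. Of 69 measured ribosomal protein genes, 66 were unmethylated and 3 intermediate, namely Rps10 (47.0%) and the testis paralogs Rpl10l (28.3%) and Rpl39l (21.7%). All 11 housekeeping genes were unmethylated, the highest being Actb (3.43%), and so were 233 of 234 Zfp genes, with Zfp42 (29.0%), a pluripotency factor, as the exception. Of 134 developmental transcription factors, 132 were unmethylated, Gata4 (62.9%) was intermediate and Sox10 methylated. Of 16 clustered protocadherins, cell adhesion genes of neurons, 15 were unmethylated, with a median of 8.59%, and Pcdhb13 (60.2%) was intermediate. Of 12 pluripotency genes only Zfp42 was intermediate, and of 9 spermatid genes only Tnp1 (23.3%), a transition protein that packs sperm DNA. The 4 measured writers and erasers of DNA methylation were unmethylated, from Tdg (0.282%) to Uhrf1 (7.01%).

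Of 14 measured keratin genes, the intermediate filaments of epithelia and including 1 keratin-associated gene, 3 were unmethylated, 8 intermediate and 3 methylated. Krt76 (97.0%), Krt42 (96.9%) and Krt35 (87.0%) were methylated, and Krt18 (3.01%), a keratin of simple epithelia, was unmethylated. Only 3 of 1463 sensory receptor genes could be measured, Olfr1033 (62.7%), an odorant receptor, Vmn2r69 (46.4%), a vomeronasal receptor, and Vmn1r4 (0.497%), whose CpG sites are those of Nt5c3. Apoh (0.933%) was the single measured gene of the liver list.

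Promoters on the list of maternally methylated imprinted genes were mostly not free of methylation. The list was drawn up by gene name, and whether each window covers the imprinted region itself was not tested. Of 12 measured, all were below 20%, and 10 lay between 11.2% (Igf2r) and 15.9% (Peg3 and Usp29, which share their CpG sites). Inpp5f (0.9987%) and Impact (2.26%) were lower. Averaged over the 10 distinct promoters, the level was 19.5% in C8, 7.06% in C14, 11.6% in D10, 18.3% in D11 and 10.8% in D13. The F3-generation had 10.2% in F3C9, 8.31% in F3C30, 10.6% in F3D1, 8.56% in F3D7 and 8.30% in F3D31. C8 and D11 were the highest of the 10, and the groups overlapped in both generations. The decitabine group differed from the vehicle group by 0.251 percentage points in the P-generation (p = 1.0, two-sided exact permutation test) and by −0.111 in the F3-generation (p = 0.9). With 10 assignments of 5 animals this test cannot give a p below 0.1.

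The germ-cell promoters varied with the imprinted ones from animal to animal. Their mean over 28 promoters was 21.95% in C8, 11.3% in C14, 18.2% in D10, 19.01% in D11 and 14.6% in D13. The F3-generation had 17.7% in F3C9, 9.40% in F3C30, 13.5% in F3D1, 9.53% in F3D7 and 11.2% in F3D31. Over the 10 animals, the only relation of this kind computed, Pearson's r was 0.86 (p = 1.80e-04, permutation test) and Spearman's rank correlation 0.85 (p = 0.00294, permutation test). Without C8 and D11, the animals farthest from the median, r was 0.81. Both measures come from the same libraries, and the F3 animals descend from P animals. Group differences of the germ-cell mean were 0.633 percentage points in the P-generation (p = 0.9, exact permutation test) and −2.13 in the F3-generation (p = 0.7), within the spread between animals.

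**Figure D3:**
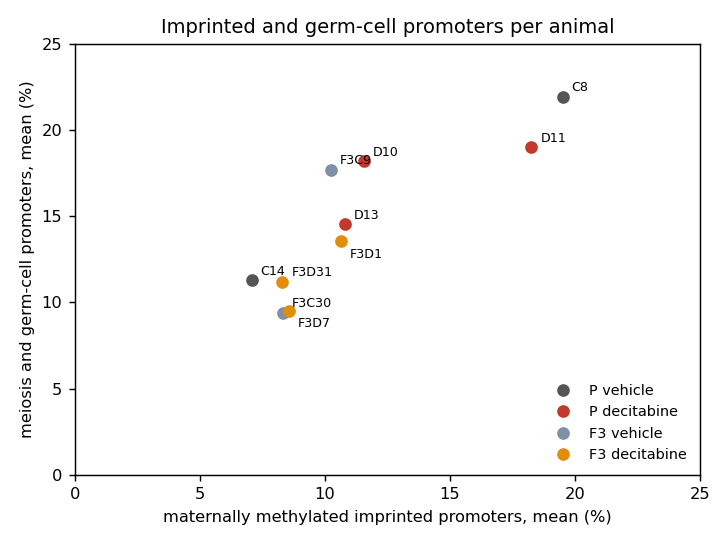
Mean methylation (%) of 28 meiosis and germ-cell promoters against that of 10 distinct promoters of the imprinted list, one point per animal, coloured by group. C8 has the highest value on both axes (19.5% and 21.95%), and C14 the lowest imprinted mean (7.06%).

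The 125 promoters of 20% to 30%, which include germ-cell genes, showed a similar order of animals, with means of 34.9% in C8, 20.6% in C14, 28.6% in D10, 31.7% in D11 and 22.8% in D13. In F3C9, F3C30, F3D1, F3D7 and F3D31 they were 26.4%, 18.5%, 24.2%, 19.2% and 21.4%. The 79 promoters of 50% to 80% ran the other way, with 57.6% in C8, 58.4% in D11 and 60.1% in D10, against 64.3% in D13 and 67.6% in C14. Their F3 means were 63.0% in F3C9, 67.3% in F3C30, 69.0% in F3D1, 70.2% in F3D7 and 67.3% in F3D31. C8, D11 and D10, the highest at imprinted and germ-cell promoters, were thus the lowest at promoters of 50% to 80%. How far differences in the cells of each preparation moved any promoter was not tested. Of the lists for other cells, 0 of 19 leukocyte genes and 1 of 13 genes of epididymal epithelium (Lcn9, 84.9%) were measured. Of 14 Sertoli and Leydig cell genes 6 were measured, from Wt1 (1.49%) to Gata4 (62.9%), and their mean per animal was 11.5% to 14.2%.

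C8 stood apart from the other libraries. At CpG sites where the other 9 animals averaged 30% to 70%, 10.5% of the sites of C8 were at exactly 0% or 100%, against 0.0864% to 0.769% in the others, and within promoters the share was 11.3% against 0% to 1.76%. Its promoter levels correlated with the mean of the other animals at 0.95, against 0.98 to 0.99. The median coverage of its promoter CpG sites, 50 reads, was within the range of 43 (D13) to 108 (F3D1). The 5 promoters with the largest range over the animals were Depp1, Gm10188, Crhbp, Gm20662 and Myog, and C8 held the extreme value in each. In Crhbp, which binds corticotropin-releasing hormone, C8 had 76.8% and the other animals 16.0% to 38.8%, and in Myog, a muscle transcription factor, 73.7% against 15.3% to 31.1%. In Depp1 C8 had 18.9% and the others 55.2% to 84.0%. Counts of promoters and CpG sites called in the P-generation are therefore also given without C8, which leaves C14 as the lone vehicle animal. So are differences of named promoters that leaving out C8 moved by over 1.5 times. Other P-generation counts, such as those of groups without overlap, include C8.

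The mean over all promoters did not separate the groups. In the P-generation it was 2.93% ± 0.312 (SD, n = 2) in the vehicle and 2.75% ± 0.104 (SD, n = 3) in the decitabine group, a difference of −0.18 percentage points (p = 0.4, exact permutation test). Without C8 the difference was 0.0442, so that its direction rested on this animal. In the F3-generation the means were 2.80% ± 0.156 and 2.85% ± 0.136, a difference of 0.0488 (p = 0.7, exact permutation test), which was −0.0616 without F3C30 and −0.0286 without F3D7. By class, the methylated promoters of the F3-generation gave the lowest p, with 91.3% ± 1.27 in the vehicle and 92.4% ± 0.141 in the decitabine group, a difference of 1.14 (p = 0.1, exact permutation test, the lowest possible, adjusted over 6 comparisons p = 0.6). The CpG sites outside promoters were at 45.0% ± 0.0886 in the vehicle and 44.5% ± 0.0331 in the decitabine group of the P-generation, without overlap, a difference of −0.45 (p = 0.1, exact permutation test). In the F3-generation they were at 45.0% ± 0.208 and 45.3% ± 0.264, a difference of 0.301 (p = 0.3, exact permutation test).

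No promoter was called in either generation by limma with Benjamini-Hochberg adjustment over all 11457 promoters. In the P-generation 0 promoters were called (0% of those tested), 785 (6.85%) had an unadjusted p under 0.05, and the median difference was −0.08 percentage points. In the F3-generation 0 were called (0%), 352 (3.07%) had an unadjusted p under 0.05, and the median difference was 0.07. For the change of the difference between generations 0 were called (0%) and 593 had an unadjusted p under 0.05. A difference below 1 percentage point was found in 85.4% of promoters in the P-generation and 90.3% in the F3-generation. By the quasi-binomial model of summed reads 0 promoters were called in both generations, and a logistic model without a term for the animal called 2572 and 1839. The quasi-binomial test takes its spread from the few animals of a single generation. It could hardly pass the adjusted threshold, so its 0 decides little. In simulated P-generation data with the observed spread, limma called 53 of 100 promoters raised by 20 percentage points and 24 of 100 raised by 10. Those raised were drawn from promoters above 5%, so these counts do not cover the 93.7% of promoters below 5%. Methylated promoters were not drawn either. The draw included promoters under 20%, where animals spread less. The median residual SD was 2.20 percentage points from 5% to 10% and 4.34 from 10% to 20%, against 8.19 in intermediate promoters. The share called among intermediate promoters alone was not computed. In each promoter all animals were given the same spread, so that an outlying animal such as C8 was not modelled.

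These counts rested on single animals. Without C14, which leaves C8 as the vehicle, 471 promoters were called in the P-generation, 457 of them lower after decitabine, and 229 for the difference between generations. Without C8, 3 were called, Bet1, Erlin2 and Grtp1, all lower. In the F3-generation 11 were called without F3C30, all lower in descendants of decitabine treated animals. In each case the lone vehicle animal was assumed to vary like the other groups.

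The lowest adjusted p in the P-generation belonged to Vasn and Dnaja3, whose promoters hold the same 8 CpG sites; both were singled out after their values were seen. Their level was 6.25% in C8, 5.88% in C14, 1.21% in D10 and 0% in D11 and D13, where the fewest calls, 202, allow up to 1.49%, a difference of −5.66 percentage points (adjusted p = 0.0708, limma). In the F3-generation the Vasn promoter lay between 0.379% and 2.85% and the groups overlapped. The lowest adjusted p in the F3-generation was that of Mphosph8, a chromatin reader, also singled out by its values (0.661% and 0.780% in the vehicle animals, 0% to 0.139% in the decitabine animals, where 0 of 294 calls would allow up to 1.02%, adjusted p = 0.0622, limma).

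Promoters whose groups did not overlap were counted as a description. In a promoter without ties, a single one of the 10 assignments of 5 animals puts the decitabine group highest, and another puts it lowest. Groups without overlap are therefore common even where nothing differs. In the P-generation 694 were higher after decitabine in all 3 animals (6.06% of promoters) and 1581 lower (13.8%). In the F3-generation 1268 were higher (11.1%) and 796 lower (6.95%). The shares in the intermediate class were 15 of 250 higher (6.0%) and 24 lower (9.6%) in the P-generation, and 32 higher (12.8%) and 10 lower (4.0%) in the F3-generation. Of the 76 methylated promoters 4 were higher and 12 lower (15.8%) in the P-generation, and 11 were higher (14.5%) and 4 lower in the F3-generation. These shares are set beside those over all promoters with no test. Differences of 10 percentage points or more were found in 58 promoters in the P-generation, 51 of them intermediate, and in 29 in the F3-generation, 23 of them intermediate.

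**Figure D4:**
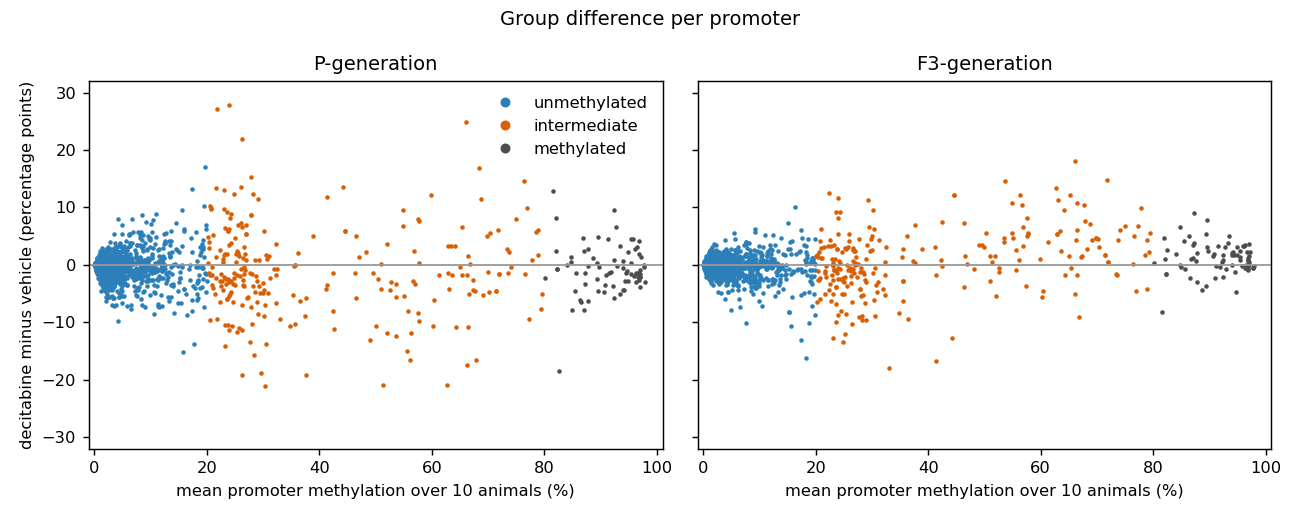
Difference in methylation (decitabine minus vehicle, percentage points) of each promoter against its mean level (%), for the P-generation (left) and the F3-generation (right), coloured by class. Differences lie between −21.1 and 27.8 in the P-generation and between −17.91 and 18.04 in the F3-generation, and the large ones are mostly at intermediate promoters.

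The largest difference towards higher methylation in the P-generation, among promoters without overlap, was in Lipo1, a gene of the lipase family on chromosome 19 (33786959-33788459, 5 CpG sites, 149 to 357 calls per animal). It had 3.53% in C8, 13.8% in C14, 33.9% in D10, 36.5% in D11 and 37.2% in D13, a difference of 27.2 ± 4.82 percentage points (SE, adjusted p = 0.554, limma). The 3 treated animals lay close together and above both vehicle animals. In the F3-generation it lay between 17.0% and 20.9% and the difference was −2.10.

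Next came Fkbp6, a co-chaperone of meiosis and the piRNA pathway. It had 22.1% in C8, 6.08% in C14, 30.5% in D10, 32.7% in D11 and 30.1% in D13, a difference of 17.0, which was 8.98 without C14. Rpl39l, whose upstream stretch is shown above, had 15.5% and 16.0% in the vehicle animals and 32.6%, 31.5% and 23.3% in D10, D11 and D13, a difference of 13.4 (adjusted p = 0.713, limma). Mael, of the piRNA pathway, had 9.89% and 16.4% against 29.7%, 26.5% and 22.9%, a difference of 13.2. Cyct, the testis cytochrome c, Pnldc1, the trimming nuclease of piRNAs, Slc25a31 and Sycp3 differed by 13.6, 12.4, 12.3 and 10.3, Cebpe, a transcription factor of myeloid cells, by 13.03, and Zfp42 by 11.5. The difference of Cyct was 20.97 without C8 and 6.175 without C14, and that of Sycp3 was 6.64 without D11. Of these 10, 0 passed the adjusted threshold with all animals, and Lipo1 passed it without C14 (32.3, adjusted p = 0.00859, limma). The F3 differences lay between −8.97 (Pnldc1) and 2.26 (Sycp3). Of the 28 measured genes on the germ-cell list, 3 were higher without overlap (Sycp3, Mael and Slc25a31) and 0 lower in the P-generation, that is 10.7% and 0%, against 6.06% and 13.8% of all promoters. Their median difference was −0.31 percentage points, against −0.08 over all promoters.

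The largest differences towards lower methylation in the P-generation without overlap were in Eif4ebp3, a repressor of translation, and Olfr1033. Eif4ebp3 had 62.2% and 54.7% in C8 and C14 against 38.5%, 42.7% and 31.1% in D10, D11 and D13, a difference of −20.96. Olfr1033 had 78.2% and 74.4% against 58.1%, 53.2% and 55.0%, a difference of −20.87 ± 11.8 (SE, adjusted p = 0.734, limma), with F3 values of 34.4% to 80.5%. A1cf, the partner of the RNA-editing enzyme of apolipoprotein B, had 96.2% and 84.5% against 74.0%, 68.3% and 73.6%, a difference of −18.38 (adjusted p = 0.602, limma), and between 82.3% and 90.3% in the F3-generation. Fgfrl1, a receptor of fibroblast growth factors, had 18.8% and 21.2% against 9.83%, 3.56% and 1.28%, a difference of −15.13. The difference of Myo1h, a myosin, was −19.24, with C8 far above the rest at 76.4% against 39.8% to 43.6% in the other P animals, and it was −2.80 without C8. Gm49322, Ankrd61, Pbx2, Gpsm3 and Plekhm2 differed by −17.50 to −13.01. Without C8 the difference was −6.80 in Pbx2 and −7.68 in Plekhm2, and without C14 it was −8.71 in Ankrd61 and −11.07 in Gm49322. With all animals 0 of the 10 passed the adjusted threshold. Without C14, A1cf (−24.26, adjusted p = 0.00681, limma) and Pbx2 (−20.71, adjusted p = 0.0226, limma) passed it.

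**Figure D5:**
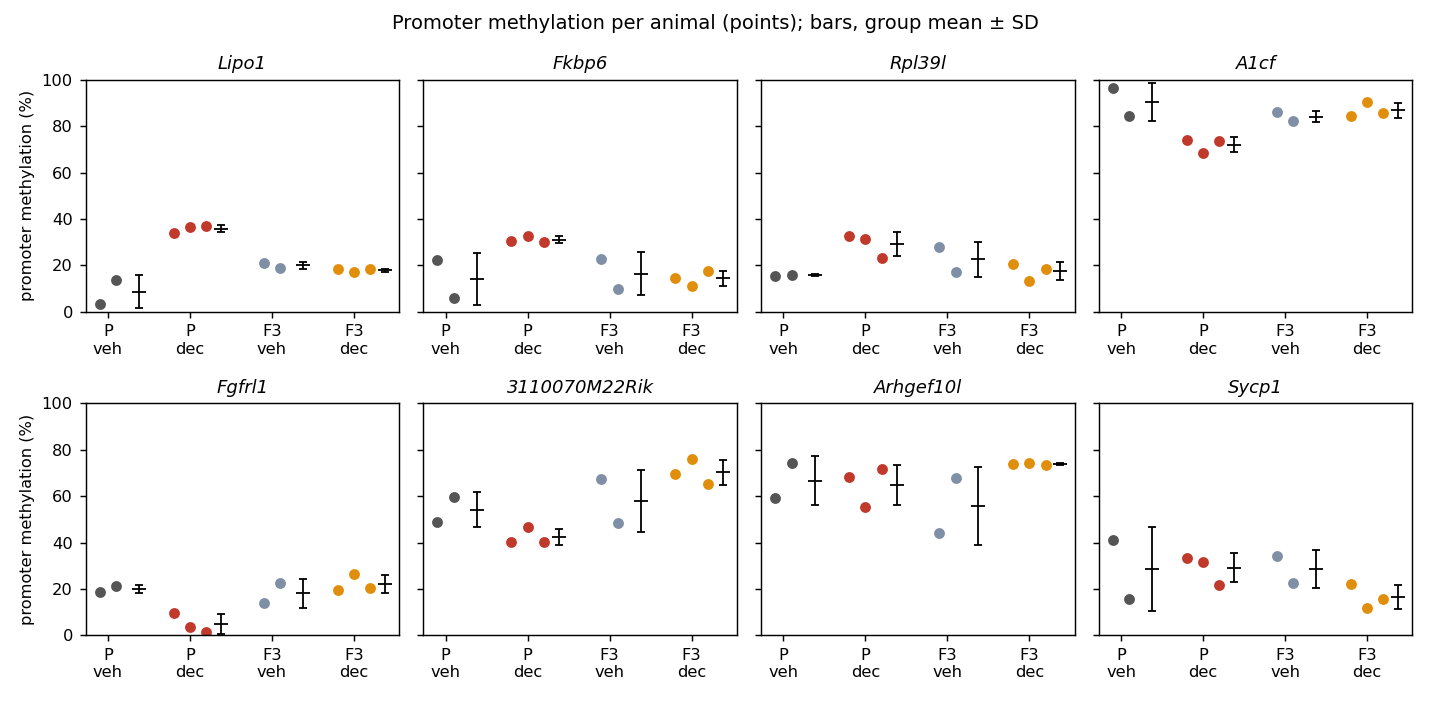
Promoter methylation (%) per animal for 8 named promoters, in P vehicle (2 animals), P decitabine (3), F3 vehicle (2) and F3 decitabine (3) groups; points are animals and the bar beside them is the group mean ± SD. Lipo1, Fkbp6 and Rpl39l are higher and A1cf, Fgfrl1 and 3110070M22Rik lower in all P decitabine animals, and Arhgef10l is higher and Sycp1 lower in all F3 decitabine animals.

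In the F3-generation, the largest difference towards higher methylation without overlap was in Arhgef10l. It had 43.9% in F3C9, 67.7% in F3C30, 74.0% in F3D1, 74.2% in F3D7 and 73.4% in F3D31, a difference of 18.04, which was 6.15 without F3C9. Espnl (14.8) and Hhatl (12.2) likewise had a low F3C9, and were 4.97 and 3.85 without it. Tmem267 had 65.5% and 43.4% against 68.9%, 72.3% and 66.2%, a difference of 14.7, which was 3.61 without F3C30. In the P-generation it had 48.3% and 54.7% against 34.4%, 45.5% and 37.7%, the opposite direction; the test of the change between generations gave −26.94 percentage points (adjusted p = 0.878, limma) and, with the P male of each line as a block, −27.42 (adjusted p = 0.833, limma). Cxcl10, a chemokine, Slc30a3, a zinc transporter, Tjp3, a tight junction protein, Krt4, Tmem173, the sensor adaptor STING, and Hspb2, a small heat shock protein, completed the list with 10.5 to 12.5. Tjp3 and Hspb2 had 5.84 and 3.72 without F3C9, and Slc30a3 had 7.135 without F3C30.

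The largest differences towards lower methylation in the F3-generation without overlap were in Il34, a cytokine of macrophages, with −16.80, and Topaz1, a gene of male meiosis, with −16.13. Without F3C30 the Il34 difference was −10.60, and without F3C9 the Topaz1 difference was −4.88. Topaz1 had 40.6% and 18.1% in F3C9 and F3C30 against 15.6%, 15.0% and 8.87% in F3D1, F3D7 and F3D31, and its D13 value of 0% rested on 113 calls, which allows up to 2.65%. Sycp1 had 34.4% and 22.7% against 22.3%, 11.7% and 15.8%, a difference of −11.98 (adjusted p = 1.0, limma), which was −6.14 without F3C9. In the P-generation Sycp1 had 41.3% and 15.8% against 33.5%, 31.9% and 21.9%, with overlap. Esam, Abca4, Gm19684, Cldn16, Itga2b, Lipo3 and Smim11 differed by −10.58 to −7.23. Without F3C9 the difference was −2.63 in Esam, −4.81 in Abca4, −4.63 in Gm19684, −5.58 in Cldn16, −4.24 in Itga2b and −3.82 in Smim11. Of the 20 differences named in the F3-generation, 13 were thus smaller by over 1.5 times without F3C9. Without F3C30, 8 of the 20 were larger and 3 smaller by as much. With all animals 0 passed the adjusted threshold, and Gm19684 passed it without F3C30 (−15.62, adjusted p = 0.00875, limma). Of the germ-cell list, 1 was higher and 1 lower without overlap in the F3-generation (3.57% each, against 11.1% and 6.95% of all promoters), with a median difference of −1.07 against 0.07 over all promoters.

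For the other lists, the counts without overlap are read against all promoters, of which 6.06% were higher and 13.8% lower in the P-generation, and 11.1% and 6.95% in the F3-generation. The imprinted list had 0 of 12 promoters higher and 0 lower in the P-generation, and 1 higher (8.33%) and 0 lower in the F3-generation. Of the 69 ribosomal protein genes, 8 were higher (11.6%) and 10 lower (14.5%) in the P-generation, and 7 higher (10.1%) and 2 lower (2.90%) in the F3-generation. Of the 134 developmental transcription factors, 10 were higher (7.46%) and 9 lower (6.72%), then 8 higher (5.97%) and 18 lower (13.4%). Of the 234 Zfp genes, 8 were higher (3.42%) and 26 lower (11.1%), then 20 higher (8.55%) and 27 lower (11.5%). The 14 keratin genes had 0 higher and 1 lower, then 2 and 0, and the 12 pluripotency genes 1 and 4, then 0 and 1. No member of any list was called in either generation. Median differences in the P- and F3-generation were −1.65 and 2.39 percentage points over the keratin genes, and 0.88 and −0.36 over the imprinted promoters.

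Single CpG sites within promoters were rarely called. A logistic model of read counts was fitted per CpG site, and calls needed 25 or more percentage points with a q-value below 0.01. In the P-generation 244 of 351903 promoter CpG sites (0.0693%) were called, against 5894 of all 892267 autosomal sites (0.661%). In the F3-generation 63 (0.0179%) were called, against 1887 of all sites (0.211%). Most promoter CpG sites had a mean under 20%. Of sites with a mean of 20% to 80%, 168 of 3803 within promoters (4.42%) and 4303 of 97355 outside (4.42%) were called in the P-generation, and 47 (1.24%) and 1555 (1.60%) in the F3-generation. This model has no term for variation between animals. With such a term per site 0 were called in both generations. With so few animals per generation, that test could hardly reach a q-value below 0.01 over all sites, so its 0 decides nothing. The count in the P-generation was 2857 without C14 and 108 without C8, and in the F3-generation 517 without F3C30 and 33 without F3C9.

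Of the called sites in the P-generation, 82 were higher and 162 lower, and they lay in 148 of the promoters described, of which 10 held 3 or more. Tmem267 had 12 and 3110070M22Rik 11 called sites, all lower, partly the same sites. Fkbp6 had 4, all higher, Lipo1 had 3 higher, and Eif4ebp3 and Olfr1033 had 3 lower each. In the F3-generation, 32 were higher and 31 lower, in 39 promoters, with 7 higher sites in each of 3110070M22Rik and Tmem267 and 4 lower sites in Wdr20rt. A total of 2 promoter CpG sites were called in both generations, 1 of them in the same direction.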

How the data were processed

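Spermatozoal DNA was sequenced after MspI digestion and bisulfite conversion. The authors called bases, trimmed, aligned to mm10 and extracted methylation (CASAVA 1.8.2, Trim Galore 0.3.3, cutadapt 1.1 and Bismark 0.10.1 per the labels' processing notes), and deposited, per animal and CpG cytosine, counts of methylated and of unmethylated reads, not normalized and not pooled. The order of both counts is not stated in the files. The first was taken as methylated, since mitochondrial CpG sites then lay at 1.09% to 2.72%. Here, both strands of a CpG site were summed, and total counts were 48903817 to 115158278 per animal. At 43 reads, the lowest median coverage of promoter CpG sites, a level of 25.6% has a 95% Wilson interval of 14.9% to 40.2%, which covers counting error only.

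Promoter means were tested with limma 3.58.1 (R 4.3.3) over 4 groups with a variance trend, single values by two-sided exact permutation, and CpG sites by a logistic likelihood ratio test, in Python 3.11.15 with scipy 1.17.1. Separate animals are the replicates. The members, gene lists and rules were chosen with earlier results of these data known. Named were promoters with the largest non-overlapping differences (10 per direction and generation), the most CpG sites per class, the 5 largest ranges and the extremes of each list. The tests were checked on simulated data. Alternatives were other coverage, CpG and window limits, pooled reads, distinct CpG sets, a coverage cap, thinning, other models and limits, and each animal left out. Leaving out C8 and F3C9 together and the lineage block were chosen after seeing the data. Sex chromosomes were not used here.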

Additional observations from a re-analysis of the deposited data

How the results depend on the processing

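The class counts depended on the limits chosen. Intermediate promoters numbered 157 with 20 reads per site, 458 with at least 3 and 65 with at least 10 CpG sites, 125 in a window of 250 bp on each side and 443 with limits at 10% and 90%. Methylated promoters numbered 29, 203, 5, 28 and 47 in the same order. Leaving out single animals gave 240 to 260 intermediate, 75 to 78 methylated and 11122 to 11139 unmethylated promoters.

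Promoters called by limma ranged from 0 to 471 in the P-generation, 0 to 11 in the F3-generation and 0 to 229 for the difference between generations when single animals were left out. In the F3-generation 1 was called with 20 reads per site, with at least 10 CpG sites and without C8 and F3C9. A logistic model of summed reads without an animal term called 2572 promoters in the P-generation and 1839 in the F3-generation at q under 0.05, and 1 and 0 with a difference of 25 percentage points. The quasi-binomial model, which could hardly pass the threshold with so few animals, called 0 in both.

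The mean difference over promoters ranged, without single animals, from −0.40 to 0.0442 percentage points (P-generation) and from −0.0616 to 0.159 (F3-generation), and was 0.0442 in the P-generation without C8 and F3C9. Called promoter CpG sites ranged from 108 to 2857 and from 33 to 517 without single animals. They numbered 121 and 19 with 20 reads per site, 97 and 32 in the narrow window, 0 and 0 with overdispersion, and 108 and 33 without C8 and F3C9, and thinning left 26 in the F3-generation. With overdispersion the site test could hardly reach its threshold with so few animals. The correlation of imprinted with germ-cell promoters stayed between 0.77 and 0.91 without single animals. Of the 40 named differences, 0 reversed under any alternative. These promoters were picked because their groups did not overlap, so leaving out animals could not reverse a difference. Without C8, 3 of 20 P differences became smaller and 1 larger by over 1.5 times, and without F3C9, 13 and 1 of 20 F3 differences. Leaving out the other vehicle animal also moved them. Without C14, 4 P differences became smaller and 2 larger, and without F3C30, 3 F3 differences became smaller and 8 larger. The cause of these changes was not tested. With the P male of each line as a replicate block, 0 promoters were called for the difference between generations, as without it. Within a generation the groups share no animal or line, so that no pairing exists. F3D1 and F3D31 both descend from D10, and the tests in the F3-generation treated them as independent animals.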
